A study of Danio rerio with 3 samples.

Results

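The mitochondrial ribosomal protein genes of zebrafish were described across 3 RNA-sequencing libraries of whole embryos of the AB strain. Members were the rows of the deposited table that had values and whose symbol began with mrpl or mrps followed by a digit. There were 74 of them among 25386 genes with values. Each library was the only one of its group. One held wild-type embryos aged 4.3 hours post fertilization (hpf), whose title gives the dome stage (late blastula). The others came from maternal-zygotic (MZ) mutants lacking both nup85 and nup133, subunits of the nuclear pore scaffold: embryos of the same 4.3 hpf, titled 1k (a stage before dome), and embryos of 7 hpf, titled dome. MZ means that neither the mother nor the embryo supplies the normal gene. These are called the early and the late mutant library below, and where 3 values stand in a row their order is wild type, early mutant, late mutant. The labels used here do not describe the mutant alleles or say how many embryos were pooled. Between the 4.3 hpf libraries genotype and stage differ together, and between the dome libraries genotype and age differ together. Between the mutant libraries age and stage differ together. In each case these cannot be told apart.

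Mitochondria carry their own ribosome, which makes the few proteins encoded in mitochondrial DNA, all of them in vertebrates core parts of the respiratory chain and ATP synthase. Its RNAs come from mitochondrial DNA, but every one of its proteins is encoded in the nucleus, made in the cytosol and imported. Some of these proteins have a counterpart in the bacterial ribosome and others were added during the evolution of mitochondria. An early fish embryo starts with messenger RNA and mitochondria stored in the egg, before its own genome is switched on.

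The symbols were checked against the RefSeq gene table, in which 73 of the 74 gene IDs carried the same symbol. The exception was mrps36 (gene 567309), which RefSeq names kgd4. The product of that gene is known as a part of the 2-oxoglutarate dehydrogenase complex, so it is given apart from the ribosomal subunits. By the subunit naming of the mammalian mitochondrial ribosome, the other 73 divided into 48 genes of the large subunit and 25 of the small subunit. mrps30 and mrps18a counted as large, where structures of the mammalian ribosome place their products. Also outside the symbol rule were mrps12, for a decoding-centre protein, which the table lists under a clone name, and mrpl58, for a peptidyl-tRNA hydrolase built into the ribosome, which it lists as ict1. mrps12 stood at 7.52 FPKM in wild-type embryos, 14.7 in the early mutant library and 9.46 in the late mutant library. mrpl58 stood at 0.53, 0.88 and 0.92 FPKM.

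Levels are in FPKM, which counts sequenced fragments relative to transcript length and library size, so they may be compared between genes and are shares of a library, not amounts per embryo. In whole embryos, fewer cells of a type and less RNA per cell cannot be told apart. The table holds no counts and absolute depth is unknown. The commonest ratio between low values of paired libraries was 0.99 to 1.05, a weak guide to relative depth. No difference could be tested or given an error, as each group is a single library. Ratios are log2 of FPKM + 1, and the background is the 14306 genes averaging 1 FPKM or more, a filter that all 74 members passed. The added 1 draws ratios towards 0, most at low levels, so some genes just under 2-fold here pass it in plain FPKM. As a check of stage, tbx16, a T-box gene of the embryo's own genome, stood at 60.9, 0.11 and 297 FPKM in wild-type embryos and in the early and late mutant, and all 5 zygotic genes listed for this check were lowest in the early mutant. Of 6 maternal genes, 4 were highest in the early and lowest in the late mutant, among them the germ plasm gene buc at 124, 274 and 20.4. The other two, which encode transcription factors, were nanog, at 1244, 861 and 850, and pou5f3, at 520, 533 and 1096.

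Every member was detected in every library, at low to moderate levels. In wild type the members ran from 0.99 to 54.95 FPKM with a median of 12.4. In the early mutant library they ran from 0.98 to 57.9 with a median of 14.4, and in the late mutant library from 1.48 to 36.2 with a median of 15.2. The medians over all measured genes were 9.58, 12.4 and 9.44 FPKM. Together the members took 0.280% of the FPKM in wild-type embryos, 0.340% in the early mutant library and 0.253% in the late mutant library. The range from lowest to highest member was 55.5-fold, 59.0-fold and 24.4-fold in the same order, although the finished ribosome holds most of these proteins in single copy.

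The highest mean level belonged to mrpl28, the counterpart of bacterial bL28, at 54.95 FPKM in wild-type embryos, 54.4 in the early mutant library and 32.9 in the late mutant library. Next came mrps30, for a large-subunit protein with no bacterial counterpart, at 49.6, 57.9 and 24.25 FPKM. Both were lowest in the late mutant library. mrps18a, a member of the S18 family, stood at 32.7, 42.8 and 35.6 FPKM. mrpl36, for the short bL36 protein, stood at 30.65, 37.3 and 35.1. These were more even than mrpl28 and mrps30. The small-subunit gene mrps22 completed the 5 highest, at 30.8, 47.25 and 22.5 FPKM. mrps36 (kgd4) stood at 23.9, 37.6 and 36.2 FPKM and was the highest of all 74 members in the late mutant library.

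The 5 members of lowest mean level all belong to the large subunit. mrpl52 stood at 0.99, 0.98 and 1.48 FPKM in wild-type embryos and in the early and late mutant. mrpl53 stood at 1.19, 1.05 and 2.07. mrpl45, whose product ties the mammalian mitochondrial ribosome to the inner membrane, stood at 1.11, 1.24 and 3.0. All 3 were highest in the late mutant library, at levels where FPKM is least precise. mrpl20 (bL20) stood at 2.71, 1.92 and 2.73 FPKM and mrpl33 (bL33) at 2.61, 2.13 and 2.80. Over the 74 members the order of levels was broadly kept between libraries, less so at the top. Spearman's rho was 0.83 between the 4.3 hpf libraries, 0.74 between the dome libraries and 0.82 between the mutant libraries. In the same comparisons, 4, 6 and 7 of the 10 most abundant members of each library were shared. Over all measured genes rho was 0.86, 0.84 and 0.74. Such values across genes share transcript length and the authors' annotation, and are given as a description.

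**Figure D1:**
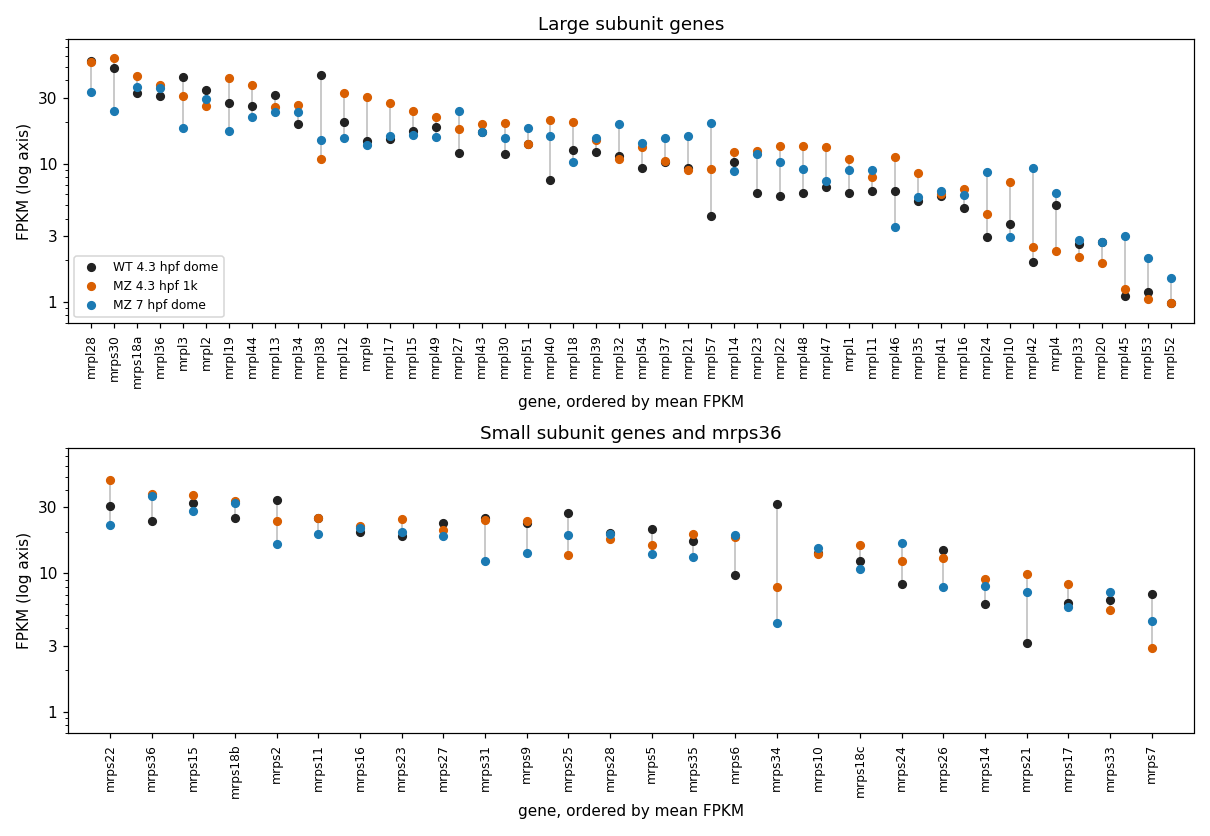
FPKM (log axis) of each mitochondrial ribosomal protein gene in the 3 libraries, 1 point per library, joined by a grey line and ordered by mean level. Points of a gene mostly lie close together; mrps34 and mrpl38 stand far higher in wild type, and mrpl57 and mrpl42 far higher in the late mutant library.

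Between the 4.3 hpf libraries, 67 of the 74 mitochondrial ribosomal protein genes were within 2-fold, and, as among all genes, more were higher in the mutant than lower. The median log2 ratio of the early mutant library to wild type was 0.25, with quartiles of -0.05 and 0.58. It stayed above 0 under all 4 other scalings, from 0.11 to 0.33. Over all measured genes the median was 0.16, and each scaling moved both medians together, with the members 0.09 to 0.10 above all genes. That distance depended on the genes taken. With no filter, which changed only the background, it was 0.25. A filter at 5 FPKM left 65 members and gave 0.21, with medians of 0.35 for the members and 0.14 for all genes. By sign, 50 members (67.6%) were higher and 24 lower, and 57.6% of all measured genes were higher. At 2-fold 4 members were higher, against 16.6% of all measured genes, and 3 were lower, against 9.60%. At 1.5-fold 18 were higher (24.3% of the members, background 30.7%) and 5 lower (6.76%, background 17.5%). The members' share was below that of all genes, a background not matched for level, at both thresholds and in both directions.

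The members higher in the early mutant library by at least 2-fold were all under 8 FPKM in wild type. Picking by this ratio favours low wild-type levels. mrps21, for the small bS21 protein, stood at 3.12 FPKM in wild-type embryos and 9.83 in the mutant (log2 ratio 1.39), and at 7.35 in the late mutant library. mrpl40, whose product lies in the central protuberance of the mammalian large subunit, stood at 7.65 and 20.8 (1.33), and at 15.9 at 7 hpf. In both, the later mutant library also stood above wild type. mrpl22 (uL22, a protein of the exit tunnel) stood at 5.85 and 13.4 FPKM (1.07), and at 10.3 at 7 hpf. mrpl48, another central protuberance gene, stood at 6.10 and 13.5 (1.03), and at 9.17 at 7 hpf. The 4 genes share the order early mutant, late mutant, wild type from high to low. Early mutant above wild type follows from how they were picked. The full order held for 27.0% of all members and 18.4% of all measured genes. Just under 2-fold were mrpl9 (bL9, at the base of the L1 stalk), at 14.7 and 30.2 FPKM (0.99), and mrpl57, at 4.17 and 9.14 (0.97). Next were mrpl23 (uL23, at the mouth of the exit tunnel), at 6.17 and 12.3 FPKM (0.89), and mrpl47 (the counterpart of bacterial uL29), at 6.76 and 13.1 (0.86).

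The lower members included the largest ratios of this comparison. mrpl38, for a central protuberance protein with a fold like phosphatidylethanolamine-binding proteins, stood at 43.8 FPKM in wild-type embryos and 10.8 in the early mutant library (-1.92). It was the third most abundant member in wild type and number 51 in the mutant. mrps34, which the small subunit needs for its stability in mouse, stood at 31.8 and 7.95 FPKM (-1.87). mrps7 (uS7, of the head of the small subunit) stood at 7.03 and 2.87 (-1.05). mrps25 lay just under 2-fold, at 27.2 and 13.5 FPKM (-0.96), and mrpl4, for a tunnel-wall protein, at 5.02 and 2.35 (-0.85). Of the more abundant genes, mrps2 (-0.48), mrpl3 (-0.44) and mrpl2 (uL2, close to the catalytic centre), at 34.2 and 26.0 FPKM (-0.38), came next and were well under 2-fold. In the late mutant library mrpl38, mrps7 and mrps25 stood between their other levels, mrps34 was lower still and mrpl4 was highest.

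Between the dome libraries, the members had no common direction. The median log2 ratio of the late mutant library to wild type was 0.09, with quartiles of -0.34 and 0.47, and it was -0.15 when libraries were scaled on proteasome genes. The median over all measured genes was -0.05 as deposited. By sign, 42 members (56.8%) were higher and 32 lower, and 47.4% of all measured genes were higher. At 2-fold 4 were higher (background 13.9%) and 5 lower (background 12.5%). At 1.5-fold 13 were higher (17.6%, background 23.9%) and 11 lower (14.9%, background 26.0%). This comparison uses the same wild-type library as the one before, so the 2 are not independent.

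The widest difference in this comparison was again in mrps34. Its level was 4.4 FPKM in the late mutant library against 31.8 in wild type (-2.60), which took it from number 9 among the members to number 67. mrpl38 stood at 14.7 against 43.8 FPKM (-1.51). mrps34 and mrpl38 were thus low in both mutant libraries, and mrps34 was lowest in the later one. mrpl3 (uL3, which reaches towards the peptidyl transferase centre) stood at 42.1 FPKM in wild-type embryos, 30.85 in the early mutant library and 18.2 in the late mutant library (-1.16). mrps2 (uS2) stood at 33.9, 23.98 and 16.3 (-1.01), and mrps30, with the levels given above, had a ratio of 0.499 on the linear scale of FPKM + 1. Just under 2-fold was mrps31, at 25.1, 24.1 and 12.2 FPKM (-0.99). It was followed by mrps26, at 14.8, 12.9 and 7.95 (-0.82), and mrpl28 (-0.72). mrpl3, mrps2, mrps30, mrps31, mrpl38 and mrps34 stood above 25 FPKM in wild-type embryos, as did mrpl28, while mrps26 did not. Picking genes by a low ratio to wild type itself favours high wild-type levels.

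The higher members at 7 hpf were of low level in wild type, which picking by a high ratio to wild type favours. mrpl57, for a large-subunit protein with no bacterial counterpart, stood at 4.17 FPKM in wild-type embryos, 9.14 in the early mutant library and 19.9 in the late mutant library (2.01 against wild type). mrpl42, also particular to mitochondria, stood at 1.95, 2.48 and 9.29 FPKM (1.80). mrpl57 was stepwise higher from library to library, while mrpl42 differed mainly in the last. mrpl24 (uL24, near the mouth of the exit tunnel) stood at 2.96, 4.36 and 8.72 FPKM (1.30), and mrps21 had a ratio of 1.02. Under 2-fold on the FPKM + 1 scale were mrpl40 (0.96), mrpl27 (bL27), at 11.9, 17.8 and 24.1 FPKM (0.95), mrpl45 (0.92) and mrps6 (bS6), at 9.73, 18.2 and 19.1 FPKM. In plain FPKM the ratios of mrpl40, mrpl27 and mrpl45 to wild type were 2.07, 2.02 and 2.70.

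**Figure D2:**
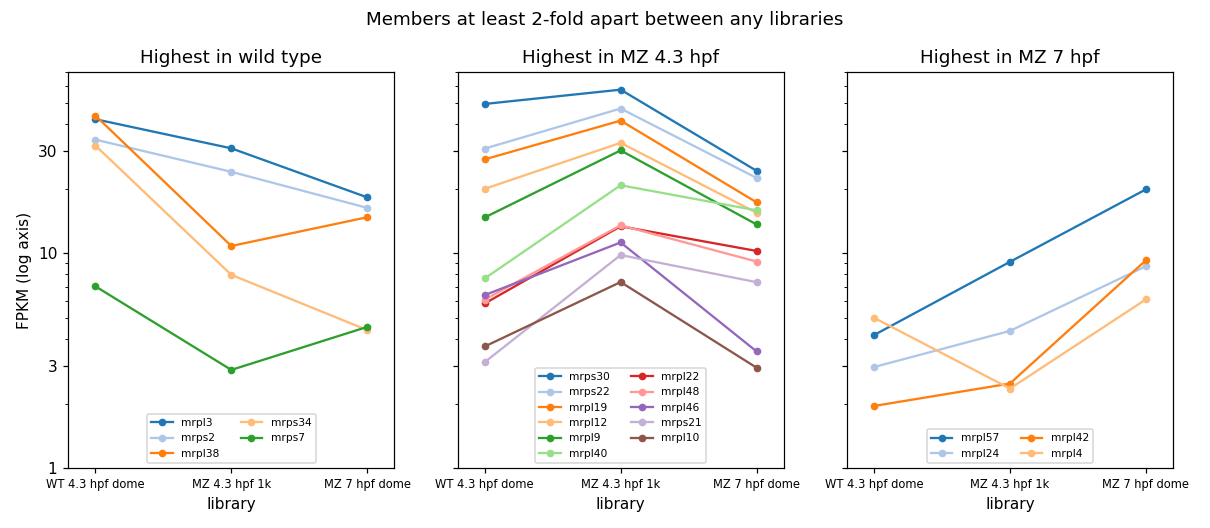
FPKM (log axis) in the 3 libraries of the 20 members at least 2-fold apart in any comparison, 1 line per gene, in panels by the library with the highest value. These were 27.0% of the members, where 50.7% of all measured genes, not matched for level, were as far apart. In the left panel mrps34 goes from 31.8 to 4.4 FPKM; in the middle panel 11 genes peak in the early mutant library; on the right mrpl57 goes from 4.17 to 19.9.

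From 4.3 to 7 hpf in the mutant, the members' median lay near that of all genes, and both were below 0. The median log2 ratio was -0.18, with quartiles of -0.53 and 0.25, and it was -0.46 to -0.02 under the other scalings. Over all measured genes the median was -0.21. By sign, 47 members were lower and 27 (36.5%) higher, and 39.9% of all measured genes were higher. At 2-fold 7 were lower, against a background of 22.2%, and 3 higher, against 13.8%. At 1.5-fold 17 were lower (23.0%, background 35.0%) and 7 higher (9.46%, background 19.1%).

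Genes of the large-subunit stalk were among the lower members. mrpl10, which anchors the stalk, stood at 7.36 FPKM in the early and 2.94 in the late mutant library (-1.09), and at 3.69 in wild type. mrpl12, the counterpart of bacterial L7/L12 that recruits translation factors, stood at 32.7 and 15.5 (-1.03), and at 19.99 in wild type. mrpl11, at the base of the stalk, stood at 8.05 and 8.97 FPKM, and at 6.37 in wild type, so the stalk genes did not all go the same way. mrpl46, a central protuberance gene, had the lowest ratio, with 11.25 FPKM at 4.3 hpf and 3.50 at 7 hpf (-1.44), and 6.40 in wild type. It lies next to mrps11 in the order of protein-coding genes in RefSeq, the only such pair among the members. mrps11 (uS11) stood at 25.25, 25.2 and 19.1 FPKM in wild-type embryos and in the early and late mutant, a narrower range than its neighbour's.

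The other lower members at 2-fold were mrps30, mrpl19, mrpl9 and mrps22. mrpl19 (bL19, which in bacteria bridges the subunits) stood at 41.5 FPKM in the early and 17.3 in the late mutant library (-1.22), and at 27.4 in wild type. mrpl9 stood at 30.2 and 13.65 (-1.09), and mrps22 had a ratio of -1.04. All 7 lower genes were highest in the early mutant library and lowest in the late mutant library, with wild type between. Early above late follows from how they were picked. The full order held for 23.0% of all members and 27.1% of all measured genes. The higher members were mrpl42 (1.56), mrpl4, at 2.35 and 6.11 FPKM (1.09), and mrpl57 (1.04). Of these, mrpl4 stood at 5.02 FPKM in wild-type embryos, near its 7 hpf level. mrpl32 (bL32), at 11.3, 10.85 and 19.3 FPKM, and mrpl21 (bL21), at 9.36, 9.03 and 15.8, also were lowest in the early and highest in the late mutant library, below 2-fold, with ratios of 0.78 and 0.74 between the mutant libraries.

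The 4 central protuberance genes named above, all picked for large ratios, had different orders of level. mrpl38 was highest in wild type, while mrpl40, mrpl46 and mrpl48 were highest in the early mutant library. At 7 hpf mrpl40 and mrpl48 stood above wild type and mrpl38 and mrpl46 below it. In contrast, 35 of the 74 members (47.3%) were under 1.5-fold in every comparison, where 3609 of 14306 genes (25.2%) were. That background was not matched for level: in wild type 11 members and 5096 of all measured genes were below 5 FPKM. At 4.3 hpf 612 of 6217 genes averaging 14.7 FPKM or more were at least 2-fold higher, and 1765 of 8089 below that level. Of the members, 1 of 37 and 3 of 37 were. At 7 hpf against wild type 813 and 980 of these genes were at least 2-fold lower, and 4 and 1 of these members. Whether level accounts for the members' smaller shares was not tested. The narrowest members included mrpl41, at 5.81, 6.03 and 6.36 FPKM, and mrps28, at 19.6, 17.8 and 19.3, both chosen after their values were seen.

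By subunit, the large-subunit members had higher medians than the small-subunit members in all 3 comparisons. Against wild type the 48 large-subunit genes had a median log2 ratio of 0.34 at 4.3 hpf and 0.16 at 7 hpf, and the 25 small-subunit genes 0.03 and -0.19. From 4.3 to 7 hpf in the mutant they were -0.15 and -0.28. Across the other scalings the signs of the large-subunit values at 7 hpf and between the mutant libraries, and of the small-subunit value at 4.3 hpf, turned in at least 1 case. The quartiles overlapped in every comparison, and the difference was not tested. At 4.3 hpf 36 of 48 large-subunit genes (75%) were above wild type, and 13 of 25 small-subunit genes (52%). Of all measured genes 57.6% were. Subunit genes that the table lists under other names were left out of both groups. At 4.3 hpf those of the small subunit had ratios of 0.88 (mrps12), 0.95 (ptcd3), 0.59 (aurkaip1), 0.39 (chchd1) and -0.32 (dap3). The large-subunit gene gadd45gip1 had -0.26. Medians with these genes were not computed. The median level in wild type also differed, at 10.3 FPKM for the large-subunit members and 19.6 for the small-subunit members.

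The members were also split by whether the subunit naming gives them a bacterial counterpart. Of the S18 family, mrps18c was counted as having one, and mrps18a and mrps18b as having none. The 29 large-subunit genes with a counterpart had medians of 0.44 at 4.3 hpf and 0.07 at 7 hpf against wild type. The 19 without one had 0.23 and 0.32. The 15 small-subunit genes with a counterpart had 0.14 and -0.08. Under other scalings the 0.07 turned to as low as -0.12 and the 0.14 to as low as -0.01. The 10 without one had -0.11 and -0.40, and both stayed below 0 under the 4 other scalings. Of these 10, 7 were below wild type at 7 hpf, where 7511 of all 14306 measured genes were. mrps34 was lowest and mrps18b highest (0.36, at 24.98 and 32.4 FPKM). With 10 genes the median rests on few values. Their symbols kept ptcd3, aurkaip1, chchd1 and dap3, also of the small subunit, out of this group. The ratios of these genes to wild type were 0.95, 0.59, 0.39 and -0.32 at 4.3 hpf, and 0.17, -0.07, 0.25 and -0.68 at 7 hpf. Medians with them were not computed, so the -0.11 and -0.40 describe the 10 members only. In wild type, the denominator of the ratios, the 10 members had the highest median level of the 4 groups, 24.1 FPKM. The small-subunit genes with a counterpart had 14.0, and the large-subunit genes with and without one 11.3 and 9.32. In the late mutant library the 4 medians were close, at 15.9, 15.2, 13.65 and 15.2 FPKM in the same order.

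**Figure D3:**
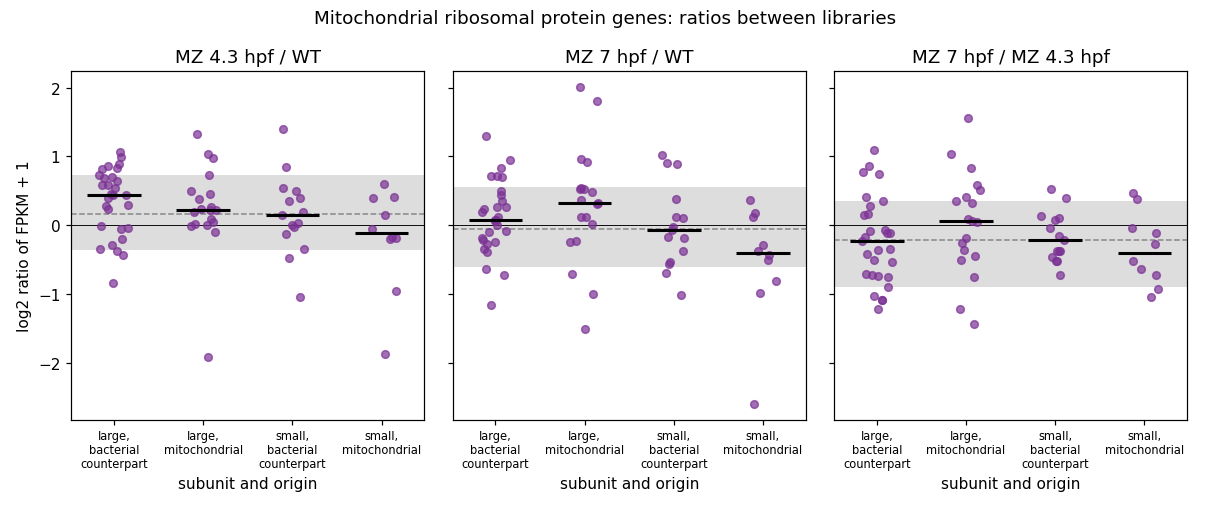
Log2 ratio of FPKM + 1 for each member in the 3 comparisons, by subunit and by whether the subunit naming gives a bacterial counterpart. Black bars are group medians, and mrps36 is left out. The grey band and dashed line are the quartiles and median of all 14306 measured genes. Most points lie in or near the grey band. Against wild type mrps34 and mrpl38 lie far below it in both mutant libraries. mrpl57 and mrpl42 lie above it in both comparisons of the late mutant library.

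The more and the less abundant members had medians of opposite sign at 7 hpf, as did all genes in the values as deposited. The split at the members' middle mean level, 14.7 FPKM, was made after the values were seen, and the mean includes the libraries compared. The 37 more abundant members had a median log2 ratio of -0.22 to wild type at 7 hpf, with 23 of 37 lower. The 37 less abundant ones had 0.31, with 28 of 37 higher, and both signs held under the 4 other scalings. All measured genes divided at the same level had -0.15 above it and 0.07 below it, the same direction with a smaller gap. These values for all genes were not computed under the other scalings, and proteasome scaling moved the undivided median of all genes by -0.22. By count, 3706 of 6217 genes above that level were lower and 4274 of 8089 below it were higher, so the count of abundant members lay near the background. At 4.3 hpf both groups of members stood above wild type, at 0.22 and 0.30, where all genes had 0.03 and 0.30. Between the mutant libraries the members had -0.36 above the split level and 0.07 below it. The sign of that 0.07 turned with the scaling. All genes had -0.12 and -0.30 there, the opposite order. The late mutant library was the highest of the 3 for 3 of the 37 abundant members and 19 of the 37 others, where among all genes the shares were 28.6% and 29.4%. Under the other scalings these counts were 2 to 7 and 11 to 21.

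Beside other large complexes, the mitochondrial ribosomal protein genes stood at other ratios than those of the cytosolic ribosome. The 81 cytosolic ribosomal protein genes had median levels of 118, 69.4 and 161 FPKM in wild-type embryos and in the early and late mutant, against 12.4, 14.4 and 15.2 for the mitochondrial set. Their median log2 ratios to wild type were -0.64 at 4.3 hpf and 0.54 at 7 hpf, where the mitochondrial set had 0.25 and 0.09. From 4.3 to 7 hpf in the mutant the cytosolic median was 1.15, with 56 of 81 genes at least 2-fold higher (background 13.8%), and the mitochondrial median was -0.18, with 3 of 74. The quartiles of these groups did not overlap at 4.3 hpf or between the mutant libraries. The difference was not tested, since there is 1 library per group.

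Nuclear-encoded genes of oxidative phosphorylation, whose products work beside those made on the mitochondrial ribosome, lay closer. The 77 measured genes had medians of 0.18, 0.38 and 0.00 in the 3 comparisons, and the sign of the last turned with the scaling. The 46 measured proteasome genes had -0.02, 0.26 and 0.33, and the sign of the -0.02 turned when libraries were scaled to equal sums. Scaling on the proteasome genes sets their own median near 0 and was left aside here; under the other scalings the 0.26 was 0.24 to 0.28. Relative to all genes at 7 hpf against wild type, the mitochondrial ribosomal set stood 0.14 above and the proteasome 0.32 above. Oxidative phosphorylation stood 0.44 above and the cytosolic ribosome 0.59 above. Under the 4 other scalings these distances were 0.13 to 0.14, 0.28 to 0.32, 0.41 to 0.44 and 0.55 to 0.59. A scaling moves all genes together, so it could hardly change them. The filter, which changes the genes taken, did: with none they were 0.09, 0.17, 0.22 and 0.54 in the same order. With a filter at 5 FPKM they were 0.20, 0.48, 0.47 and 0.68.

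**Figure D4:**
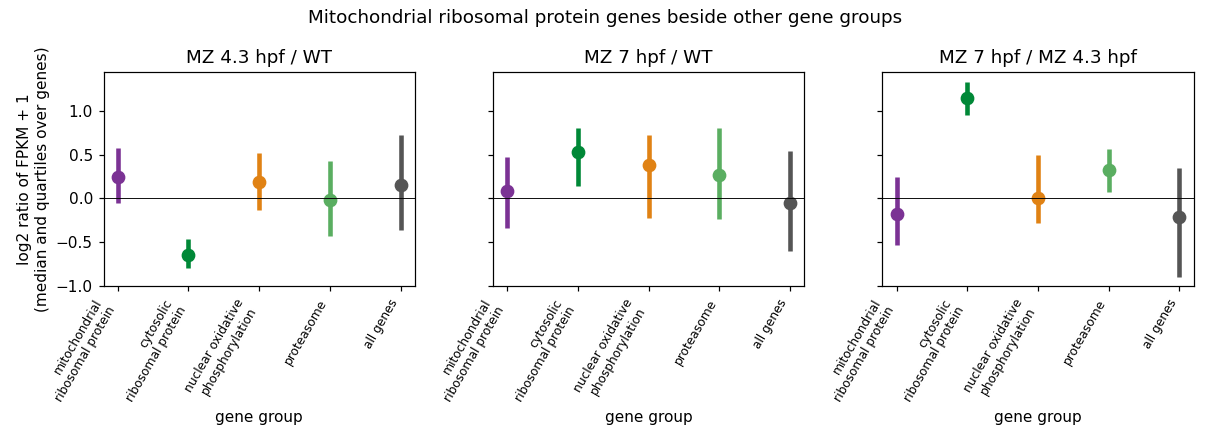
Median (point) and quartiles (bar) of the log2 ratio of FPKM + 1 over the genes of each group, in the 3 comparisons; bars show spread over genes, not error between samples. The cytosolic ribosomal protein genes lie at -0.64, 0.54 and 1.15, while the mitochondrial ones lie at 0.25, 0.09 and -0.18, near all genes.

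Subunits that carry other names were listed separately. dap3, for the GTP-binding protein of the small subunit, stood at 36.85, 29.3 and 22.6 FPKM in wild-type embryos and in the early and late mutant. ptcd3, for a pentatricopeptide repeat protein of the same subunit, stood at 22.6, 44.5 and 25.4. aurkaip1, also of the small subunit, stood at 82.3, 124.5 and 78.6 FPKM, above every member in each library. chchd1 stood at 14.5, 19.4 and 17.4, and gadd45gip1, of the large subunit, at 39.9, 33.2 and 38.3. None of the 5 was 2-fold apart in any comparison, where 50.7% of all measured genes were.

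Genes that build and serve the mitochondrial ribosome had lower medians at 7 hpf than the ribosomal proteins, a difference between lists that was not tested. Of 28 assembly factors, which modify the ribosomal RNA or fit the subunits together, 7 were at least 2-fold lower than wild type at 7 hpf and 3 higher, with a median of -0.52, against 12.5% of all genes lower and 13.9% higher. From 4.3 to 7 hpf in the mutant 10 were lower (background 22.2%) and 1 higher (background 13.8%), with a median of -0.77. At 4.3 hpf 1 was lower (background 9.60%) and 3 higher (background 16.6%), with a median of 0.20. ybey, for an rRNA endonuclease known from bacteria, stood at 9.09, 0.49 and 0.25 FPKM. afg3l2, for an inner-membrane protease that matures a ribosomal protein, stood at 9.17, 10.7 and 1.51. ybey was low in both mutant libraries and afg3l2 in the late one. mrm1, for an rRNA methyltransferase, stood at 8.0, 12.6 and 2.32 FPKM, and the helicase gene ddx28 at 22.2, 14.5 and 5.83. The most abundant of the list, c1qbp, stood at 81.3, 66.6 and 71.9.

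Genes for charging mitochondrial tRNAs also had a median below 0 at 7 hpf, and, unlike the assembly factors, at 4.3 hpf. Of 17 measured, 6 were at least 2-fold lower than wild type at 7 hpf and 0 higher, with a median of -0.51, where 12.5% of all genes were lower and 13.9% higher. At 4.3 hpf 1 was lower and 0 higher (median -0.11, backgrounds 9.60% and 16.6%). Between the mutant libraries 6 were lower and 1 higher (median -0.82, backgrounds 22.2% and 13.8%). cars2, for the cysteine enzyme, stood at 5.23, 8.79 and 0.58 FPKM. tars2, for the threonine enzyme, stood at 37.2, 16.99 and 10.85, and rars2, for the arginine enzyme, at 4.65, 2.92 and 0.78. qrsl1, whose product corrects the charge of the glutamine tRNA, stood at 16.7, 13.8 and 5.10. These 4 genes were lowest in the late mutant library.

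Of the 17 translation factors and related genes, 2 were at least 2-fold lower than wild type at 7 hpf and 3 higher (median -0.20), near the backgrounds of 12.5% and 13.9%. At 4.3 hpf 0 were lower and 2 higher (median 0.30, backgrounds 9.60% and 16.6%), and between the mutant libraries 2 were lower and 1 higher (median -0.36, backgrounds 22.2% and 13.8%). mtfmt, which formylates the initiator tRNA, stood at 18.8, 25.9 and 4.17 FPKM, and the initiation factor gene mtif2 at 23.4, 15.5 and 7.88. taco1, an activator of the translation of a cytochrome oxidase subunit in human, stood at 0.51, 9.24 and 4.5, and guf1, for a translation elongation factor related to LepA, at 2.08, 6.94 and 3.07. mtfmt and mtif2 were lowest at 7 hpf, and taco1 and guf1 were lowest in wild type. The abundant elongation factor gene tufm stood at 47.5, 35.0 and 41.3. All medians of these 3 lists kept their sign under the 4 other scalings.

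**Figure D5:**
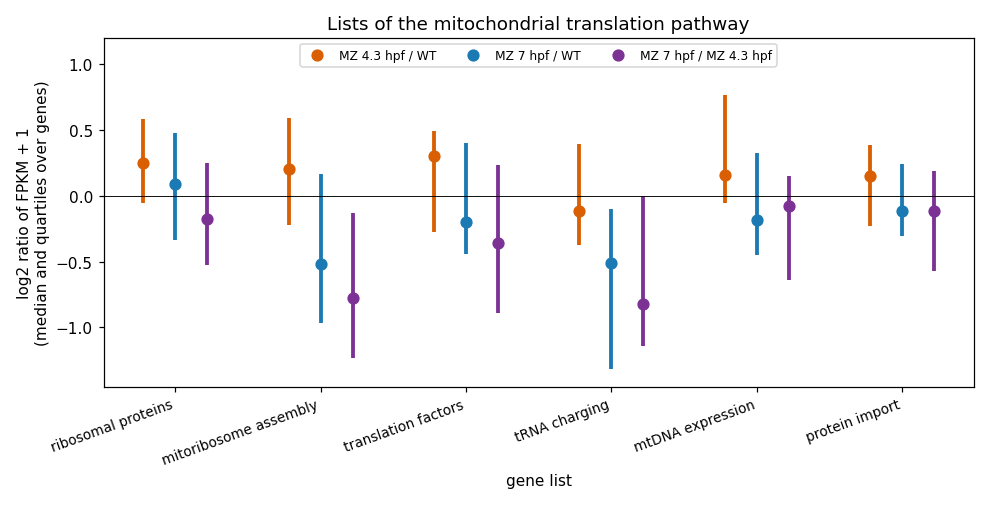
Median (point) and quartiles (bar) of the log2 ratio of FPKM + 1 over the measured genes of each list of the mitochondrial translation pathway, with the 3 comparisons side by side; bars show spread over genes. Assembly and tRNA-charging genes lie lowest in the late mutant library, at -0.52 and -0.51 against wild type, where the ribosomal proteins lie at 0.09.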

How the data were processed

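RNA of dechorionated whole embryos was sequenced, 1 library per group. Trimmomatic 0.36, Bowtie2 2.2.5, RSEM 1.2.8 and the build GRCz11 are listed, without roles, in the submitters' processing notes. The authors deposited 1 table of FPKM per gene, a unit named in its header, with values to 0.01. Of its 26437 rows, 1051 had no values and were left out. No source used here tells how reads of gene copies or overlapping genes were divided. The 3 libraries were grouped by title. Each pair was compared by log2 of (FPKM + 1), over genes averaging 1 FPKM or more, and genes were counted at 2-fold. No test was possible. The members, lists and naming rules were chosen with earlier results of these data known. Named members were the 8 largest ratios each way per comparison, the 5 highest and lowest by level and all those past 2-fold. mrpl11, mrps11, mrps18b, mrpl41 and mrps28 were added after their values were seen. Of other lists, up to 4 genes with the largest ratio and the most abundant were named. List names were matched by symbol, or through RefSeq (GRCz12tu), which was used for names and gene order only since its build differs. Protein and promoter sequences were not used here, so a planned motif search was not run. Alternatives were pseudocounts of 0.1 and 5, no filter, a filter at 5 FPKM, a threshold of 1.5-fold, 4 scalings and, added after the data were seen, leaving out mrps36. Scripts were tested on simulated data. Tables were computed in pandas 2.3.3 with numpy 2.4.6 under Python 3.11.15, and drawn with matplotlib 3.10.9.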

Additional observations from a re-analysis of the deposited data

How the results depend on the processing

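Counts at 2-fold are small, so they move readily. A pseudocount of 0.1 gave 5 members lower at 4.3 hpf and 7 higher at 7 hpf against wild type. With 5 there was 1 higher at 4.3 hpf, 2 higher and 3 lower at 7 hpf, and 0 higher and 2 lower between the mutant libraries. A filter at 5 FPKM, equal sums and proteasome scaling each left 1 higher between the mutant libraries. Scaling by the median of ratios gave 2 higher at 4.3 hpf and, between the mutant libraries, 3 lower and a median of -0.025. Proteasome scaling gave 13 lower and a median of -0.46 there, and a median of -0.15 at 7 hpf against wild type. Equal sums without the 1% most abundant genes gave 3 lower at 7 hpf. At 1.5-fold the counts were 18 higher and 5 lower, 13 and 11, and 7 and 17. These scalings moved the median of all genes by -0.14 to 0.08 at 4.3 hpf, -0.22 to 0.02 at 7 hpf and -0.25 to 0.14 between the mutant libraries. Of 26 member ratios past 2-fold, 14 stayed past it under every scaling and 10 under every alternative that could be computed, and 0 turned in sign. Dropping the filter moved no count or median of the members, since all pass it, but moved the median of all genes by -0.16, 0.06 and 0.21, so the members' distance from it became 0.25, 0.09 and -0.18. With the filter at 5 FPKM that distance was 0.21, 0.20 and -0.03. Leaving out mrps36 moved no count by over 1.5 times. No paired analysis was possible because each group has 1 library. Replicates are lacking, so none could be left out, and the precision of low FPKM is unknown.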

Other observations

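Counts past 2-fold in lists of other mitochondrial genes stand beside shares over all genes of 16.6% higher and 9.60% lower at 4.3 hpf and 13.9% higher and 12.5% lower at 7 hpf. Of 26 measured genes of protein import, 4 were at least 2-fold higher and 1 lower than wild type at 4.3 hpf (median log2 ratio 0.15, with a sign that turned with the scaling), and 2 higher and 1 lower at 7 hpf (median -0.11). timm9, for a chaperone of the space between the membranes, stood at 81.1 FPKM in wild-type embryos, 26.4 in the early mutant and 24.9 in the late mutant library. The receptor gene tomm20b stood at 21.2, 63.8 and 45.85, and tomm40l, for a channel protein, at 0.58, 3.64 and 4.70. The import motor gene hspa9, the most abundant of the list, stood at 145, 103 and 139.6.

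Of 10 genes for keeping and transcribing mitochondrial DNA, 2 were higher and 0 lower at 4.3 hpf, and 2 higher and 2 lower at 7 hpf, against the same backgrounds. polrmt, the mitochondrial RNA polymerase gene, stood at 7.32, 17.1 and 2.99 FPKM, and mgme1, for a mitochondrial exonuclease, at 15.1, 9.03 and 5.04. The polymerase gene polg stood at 1.78, 5.27 and 6.23 FPKM, tfb2m at 1.24, 2.45 and 4.69, and ssbp1 at 26.35, 23.3 and 21.2. Of 10 measured regulator genes, 3 were lower and 2 higher at 4.3 hpf, and 3 higher and 0 lower at 7 hpf, against the same backgrounds. mych and mycn, of the Myc family, stood at 92.9, 4.77 and 240 FPKM and at 17.3, 0.42 and 33.5, and yy1a at 19.3, 1.76 and 63.4. mycb stood at 3.51, 11.1 and 9.11. The coactivator gene pprc1, the most abundant of the list, stood at 143, 160 and 110. Values for regulators are set here beside those of the ribosomal genes without a test of any link.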
